A study of Arabidopsis thaliana with 8 samples.

Results

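The chloroplast has its own ribosomes, and 5 nuclear genes that encode proteins of these ribosomes were followed gene by gene between bright and dim red light. The genes were AT1G29070, AT4G01310 and AT5G65220 of the large subunit and AT3G13120 and AT1G64510 of the small subunit. They were named by locus, without a cut on any measured value, though earlier results of these data were known when they were chosen. Each was read on 1 probe whose platform annotation lists that gene and no other. These are 5 of the 690 loci named by single-gene probes on the array.

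Arabidopsis thaliana plants of the Landsberg ecotype, wild type, gave the total RNA, which was hybridised to 8 single-channel arrays. On 4 arrays the plants had been in red light at 200 µE for 48 hours, and on the other 4 at 20 µE for 48 hours. The comparison asks which transcripts differ between bright and dim red light. The sources used here do not state tissue or age, and µE stands in the labels without an area or time. Whether the replicates are separate plants is not stated, so the p-values describe the spread between these arrays alone, which may be technical.

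Plastid ribosomes are of the bacterial type. They translate the chloroplast's own messages, which include core proteins of the photosystems and the large subunit of Rubisco. Part of their proteins is encoded in the plastid genome, and the rest, including the 5 studied here, is encoded in the nucleus and imported after synthesis in the cytosol. A large and a small subunit join to form each ribosome, so the cell has to supply the proteins of both. The protein names used below, L34, L5, L29, S10 and S6, and their subunits are background knowledge of these loci, because the reference table gives the loci no symbol.

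The deposited values are intensities on a linear scale with the same maximum on every array. The median of the values above 0 was 0.543 ± 0.0337 at 200 µE and 0.305 ± 0.0438 at 20 µE (SD, n = 4 each). The deposited log2 difference, 200 minus 20 µE, had a median of 0.82 over the 2600 probes above 0 on all arrays. Quantile normalization was therefore used for the main comparison; it gives all arrays the same distribution, and normalized differences are relative to the other probes. At both light levels the arrays of replicates 1 and 2 differed as a set from those of replicates 3 and 4, so values are also given within each of these sets. The sets are not groups of the study. Of 28 marker genes of green leaf and other tissues, 1 had a single-gene probe: LHB1B2, a chlorophyll-binding antenna protein of green cells, with deposited intensities of 4.99 to 6.87 at 200 µE and 10.5 to 24.8 at 20 µE. Its part in the results below was not tested.

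AT1G64510 was at 0 on all arrays and could not be compared. None of the other 4 ribosomal protein genes passed the test for a difference between the light levels, where 6.83% of the 3439 probes did (limma, Benjamini-Hochberg adjusted p under 0.05). At an unadjusted limma p under 0.05 the count was also 0 of 4, against 18.3% of all probes. Among these 4 genes, all above 0 on all arrays, the median normalized log2 difference was −0.17, and it was −0.04 over the 2600 such probes. The normalized groups overlapped for each of the 4 genes, while the groups did not overlap for 15.5% of the probes above 0 on some array. In RNA of bulk plant material, fewer cells of a type and less RNA per cell cannot be told apart.

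L5, encoded by AT4G01310, binds the 5S ribosomal RNA in the bacterial ribosome and sits in the central protuberance of the large subunit. Its deposited intensities in replicates 1 to 4 were 0.725, 0.802, 0.955 and 0.981 at 200 µE, against 0.187, 0.267, 0.499 and 0.700 at 20 µE. The lowest array at 200 µE lay just above the highest at 20 µE, so the deposited groups did not overlap. Of the probes above 0 on some array, 37.6% were likewise above all 20 µE arrays on every 200 µE array, so this is common on these arrays. After normalization the values were 0.627, 0.709, 0.689 and 0.707 at 200 µE, and 0.312, 0.437, 0.602 and 0.808 at 20 µE. The 200 µE arrays lay close together, with an SD of 0.0381 around a mean of 0.683, while the 20 µE arrays spread over the whole range, with an SD of 0.215 around a mean of 0.540 (n = 4 each). The log2 difference was 0.43 ± 0.29 (SE; limma, adjusted p = 0.527), with a 95% interval of −0.26 to 1.11.

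The same-numbered arrays showed where that spread lay. In normalized values the 4 differences of L5 were 1.01, 0.70, 0.20 and −0.19 in replicates 1 to 4. Replicates 1 and 2 averaged 0.85 and replicates 3 and 4 averaged 0.00. The difference between these sets was −0.85 ± 0.32 (SE) and missed the threshold for an interaction of light with set (limma, adjusted p = 0.257, against 5.79% of probes past it). Its unadjusted p was 0.048 (limma), and 651 of the 3439 probes were under 0.05. In the deposited values the difference between the sets was −1.06 (limma, adjusted p = 0.236, unadjusted p = 0.0304). No probe passed that test there at the adjusted threshold, and 582, L5 among them, had an unadjusted p under 0.05. In normalized values replicates 3 and 4 stood 0.07 above replicates 1 and 2 on the log2 scale at 200 µE, and 0.92 above them at 20 µE. The 20 µE arrays of replicates 1 and 2 were thus the low ones. In the position of the probe among all probes of its array, which no scaling of an array changes, L5 lay at percentiles 71.4 to 75.5 at 200 µE and 47.7 to 79.4 at 20 µE.

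L29, encoded by AT5G65220, lies beside the opening of the peptide exit tunnel in the bacterial ribosome. Its deposited intensities in replicates 1 to 4 were 1.66, 1.65, 1.34 and 1.77 at 200 µE, against 1.12, 1.16, 1.49 and 1.26 at 20 µE. Replicate 3 was the exception in both groups, the lowest of the 200 µE arrays and the highest of the 20 µE arrays, and it made the groups overlap. The normalized values were 1.53, 1.52, 1.03 and 1.43 at 200 µE and 1.50, 1.58, 1.57 and 1.34 at 20 µE. All but the 200 µE array of replicate 3 lay in a narrow band. The log2 difference was −0.13 ± 0.14 (SE; limma, adjusted p = 0.712), with a 95% interval of −0.47 to 0.20. This was the narrowest interval of the 4 genes. The spread within groups, 0.21 on the log2 scale, lay at percentile 14.8 of the probes above 0 on all arrays, whose median was 0.41.

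The reading of L29 depended on the scaling. Its deposited intensities differed by 0.35 on the log2 scale, which was 0.46 less than the median probe. With each array centred on its median the difference was −0.49 ± 0.16 (SE), negative in each of the 4 same-numbered pairs, from −0.88 to −0.25. On that scale 32.7% of the 2600 probes above 0 on all arrays were also lower in all 4 pairs. The unadjusted p of L29 was then 0.0186 and its adjusted p 0.149 (limma), so it did not pass there either, while 6.14% of all probes did. An unadjusted p under 0.05 was found there for 617 of the 3439 probes (limma). When the probes above 0 on all arrays were parted into 4 equal classes of brightness, the median deposited difference was 1.01 in the dimmest and 0.49 in the brightest, a slope that median centring keeps. L29 was in the brightest class, at percentiles 85.4 to 91.6 of its array at 200 µE and 89.9 to 92.0 at 20 µE.

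L34, encoded by AT1G29070, is one of the smallest proteins of the large subunit in bacteria. Its deposited intensities in replicates 1 to 4 were 0.193, 0.237, 0.389 and 0.284 at 200 µE, against 0.0991, 0.196, 0.141 and 0.160 at 20 µE. Each 200 µE array was above its same-numbered partner, and the groups met only where the lowest 200 µE array lay just under the highest 20 µE array. The normalized values were 0.144, 0.175, 0.280 and 0.203 at 200 µE and 0.168, 0.325, 0.204 and 0.232 at 20 µE. Here 3 of the 4 pairs were lower at 200 µE and replicate 3 was higher. The log2 difference was −0.21 ± 0.27 (SE; limma, adjusted p = 0.803), with a 95% interval of −0.87 to 0.45. Its sign turned to 0.04 with median centring, and in the deposited values its difference of 0.88 was 0.07 above that of the median probe. Replicates 1 and 2 averaged −0.56 and replicates 3 and 4 averaged 0.14 in normalized values.

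S10, encoded by AT3G13120, belongs to the head of the small subunit and in bacteria also takes part in transcription antitermination. Its deposited intensities in replicates 1 to 4 were 0.201, 0.234, 0.311 and 0.0983 at 200 µE, against 0.134, 0.108, 0.122 and 0.0481 at 20 µE. Replicate 4 was the lowest array at both light levels, and each 200 µE array was above its same-numbered partner. After normalization the values were 0.148, 0.172, 0.228 and 0.0587 at 200 µE and 0.226, 0.179, 0.182 and 0.0861 at 20 µE. The log2 difference was −0.22 ± 0.50 (SE; limma, adjusted p = 0.941), and the interval of −1.42 to 0.98 was the widest of the 4 genes. The spread within groups was 0.74 on the log2 scale, at percentile 82.8 of the probes above 0 on all arrays. With the replicate number as a block, which removes what same-numbered arrays share, the SE was 0.20 and the interval −0.82 to 0.38, and the gene still did not pass (limma, adjusted p = 0.497, where 18% of probes passed). Leaving out the 200 µE array of replicate 4 turned the sign to 0.18, and leaving out the 20 µE array of replicate 4 gave −0.52. With both arrays of replicate 4 left out the mean of the same-numbered differences was −0.11, and with both of replicate 1 left out it was −0.10.

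S6, encoded by AT1G64510, binds the platform of the small subunit together with S18 in bacteria. All 4 values at 200 µE and all 4 at 20 µE were listed at 0, so no level, fold or test can be given. Of the 3439 probes, 320 (9.31%) were at 0 on all 8 arrays, and among the 692 single-gene probes 66 (9.54%) were. S6 was the only one of the 5 genes with a value at 0. The other 4 were above 0 on all arrays, as were 2600 of the 3439 probes and 537 of the 692 single-gene probes. The values above 0 went far down on each array, with a lowest positive intensity of 8.73e-05 to 0.00136 at 200 µE and 2.87e-07 to 2.87e-04 at 20 µE. The lowest intensity of the other 4 genes was 0.0481, that of S10. The sources used here do not state how values were set to 0, and a value of 0 was not read as an absent transcript.

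**Figure D1:**
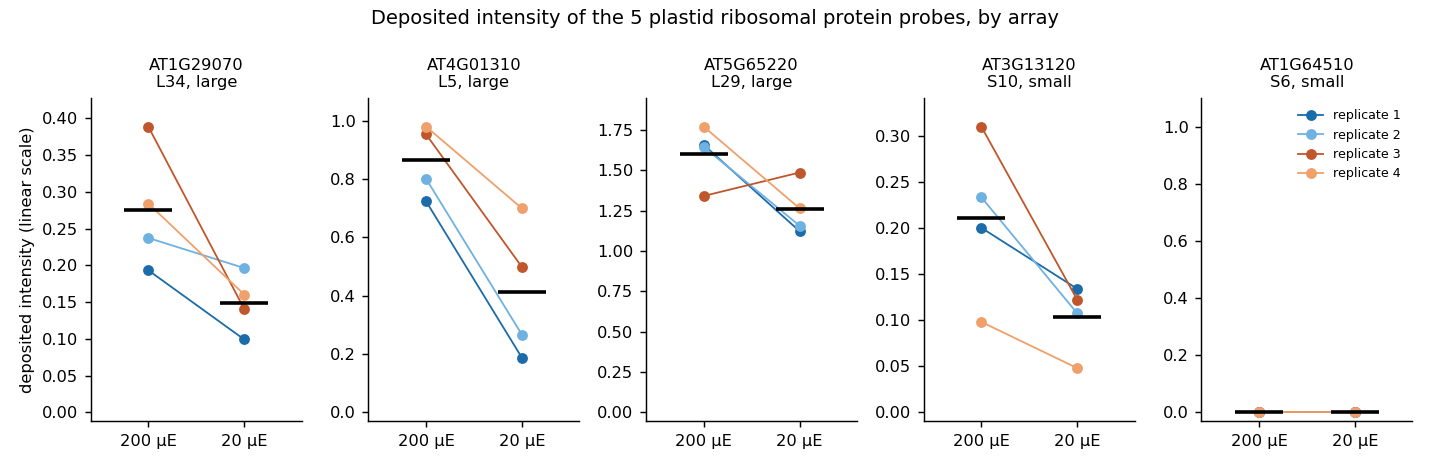
Deposited intensity (vertical axis, linear scale) of the 5 genes at 200 µE (left) and 20 µE (right), with lines joining same-numbered arrays, colours for replicates 1 to 4 and black bars for group means; each panel has its own axis. L5 ranges from 0.725 to 0.981 at 200 µE and 0.187 to 0.700 at 20 µE, and S6 is at 0 throughout.

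Across the 4 genes above 0, 15 of the 16 same-numbered pairs had the higher deposited intensity at 200 µE, with L29 in replicate 3 as the exception. Over the 2600 probes above 0 on all arrays, 88.0% of pairs were higher, and 77.5% of probes were higher in all 4 pairs, against 3 of the 4 genes. The deposited differences averaged 1.24 ± 0.65 for L5, 0.88 ± 0.49 for L34, 0.35 ± 0.34 for L29 and 1.02 ± 0.32 for S10 on the log2 scale (SD over 4 pairs). None passed in the limma test of the deposited values, where 27% of all probes did, and the adjusted p was 0.0705 for L5, 0.0687 for L34 and 0.13 for both L29 and S10. At an unadjusted p under 0.05 there were 2 of the 4 (L5 and L34), against 41.6% of all probes. Set beside the median of their own class of brightness, L34 and S10 (dimmest class, 1.01) differed by 0.88 and 1.02, L5 (second brightest class, 0.84) by 1.24 and L29 (brightest class, 0.49) by 0.35. After quantile normalization 7 of the 16 pairs were higher at 200 µE, against 46.8% over the 2600 probes. No gene had all 4 normalized pairs on one side of 0. Of the 2600 probes, 25% were higher in all 4 normalized pairs and 30.9% were lower in all 4.

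**Figure D2:**
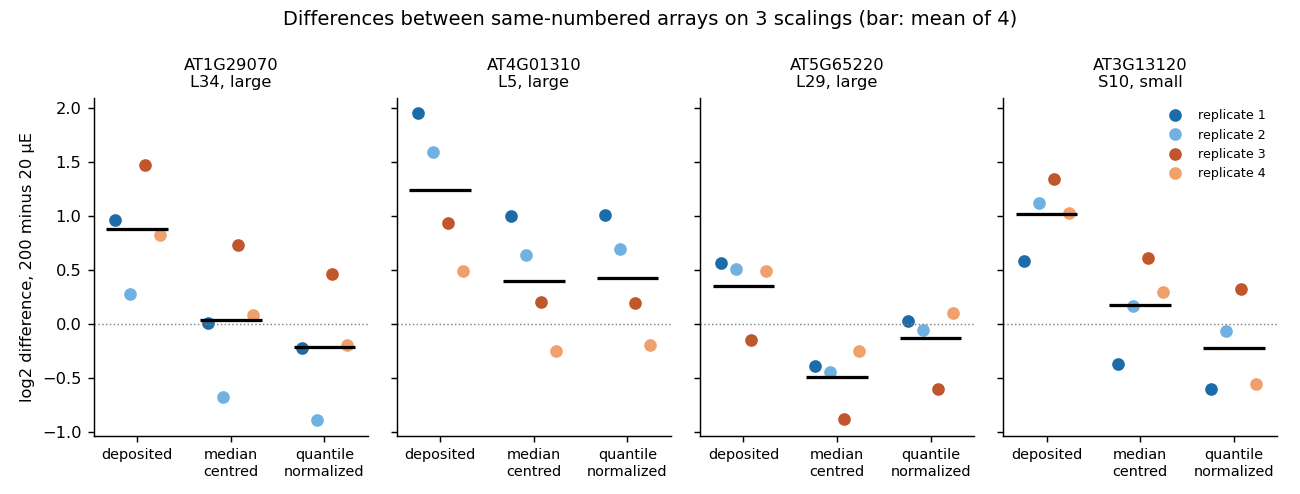
Log2 difference, 200 minus 20 µE, between same-numbered arrays (vertical axis) for 4 genes in deposited, median-centred and quantile-normalized values; dots are replicates 1 to 4 and bars their mean. Deposited points lie above 0 except L29 in replicate 3 (−0.15), while quantile-normalized points of each gene lie on both sides of 0.

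**Figure D3:**
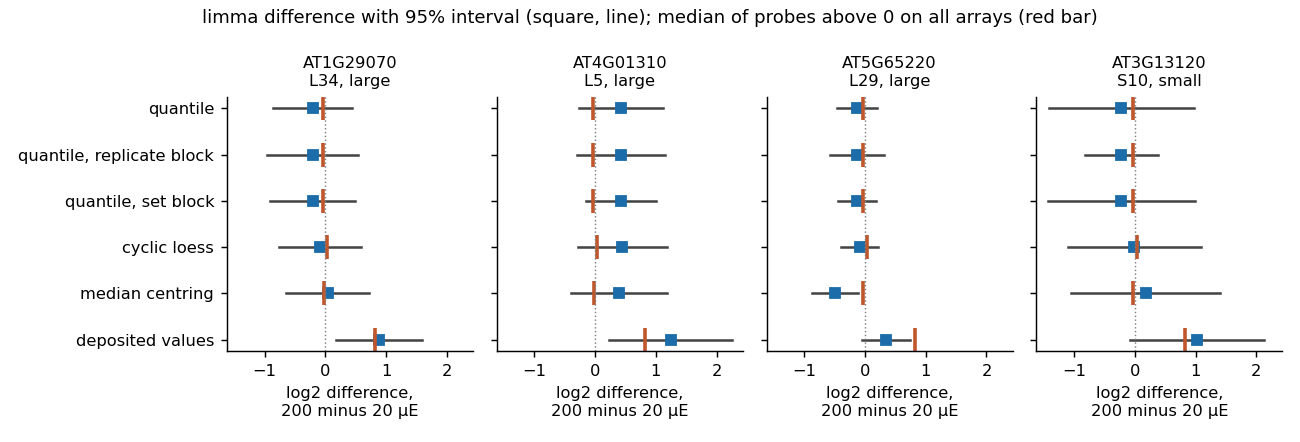
limma log2 difference, 200 minus 20 µE (horizontal axis), with its 95% interval for 4 genes under 6 settings; the red bar marks the median of the probes above 0 on all arrays under that setting. Intervals of L34 and L5 lie above 0 in the deposited values and that of L29 lies below 0 with median centring, and no adjusted p passed in any of the 6.

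The large and the small subunit were set against each other in each same-numbered pair, as the mean of L34, L5 and L29 beside S10, the only small-subunit gene above 0. In normalized values the large-subunit mean was 0.03 ± 0.17 on the log2 scale and S10 was −0.22 ± 0.44 (SD over 4 pairs). The gap, large minus small, was 0.88, −0.02, −0.31 and 0.46 in replicates 1 to 4, with a mean of 0.25 ± 0.52 (SD). It was positive in 2 pairs and negative in 2. In the deposited values, where any factor common to an array cancels from the gap, it was 0.58, −0.33, −0.59 and −0.43, with a mean of −0.19 ± 0.53 (SD). The mean thus changed sign with the scaling and was smaller than the SD on both scales. The slope of the deposited difference with brightness does not cancel from the deposited gap. Its class medians were 1.01 for the class of L34 and S10, 0.84 for that of L5 and 0.49 for that of L29. The small subunit is represented by 1 gene whose spread is wide, so the gap follows S10 as much as the large-subunit genes. The gap was described and not tested.

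The genes were also set against each other within each array. In the deposited values the log2 ratio of L5 to L29 was −0.89 ± 0.30 at 200 µE and −1.78 ± 0.74 at 20 µE (SD, n = 4 each), and the change was 1.39, 1.08, 1.09 and 0.00 in replicates 1 to 4. The groups of arrays overlapped. After quantile normalization the mean change of that ratio was 0.56 ± 0.58 (SD over 4 pairs). The ratio of L34 to L5 changed by −0.99 and −1.31 in replicates 1 and 2 and by 0.53 and 0.34 in replicates 3 and 4 in the deposited values. The ratio of L29 to S10 changed by −0.67 ± 0.61 (SD) there, and by −0.02, −0.61, −1.49 and −0.54 in replicates 1 to 4. After quantile normalization that ratio changed by 0.09 ± 0.74 (SD). The slope with brightness does not cancel from a deposited ratio. The median deposited difference was 0.49 in the class of L29, 0.84 in that of L5 and 1.01 in that of L34 and S10. The groups overlapped for all 6 ratios among the 4 genes on both scales, and the ratios were not tested. Because probes differ in how brightly they hybridise, a ratio shows unequal change and no amount of one transcript against another.

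**Figure D4:**
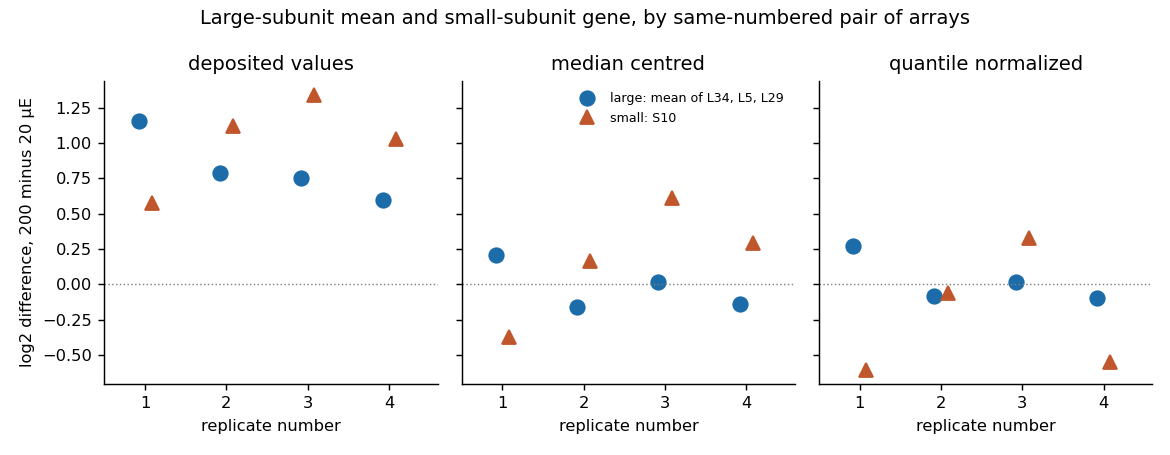
Log2 difference, 200 minus 20 µE (vertical axis), of the large-subunit mean (circles) and of S10 (triangles) in each same-numbered pair of arrays, in deposited, median-centred and quantile-normalized values. In replicate 1 the circle is above the triangle on all 3 scalings, and in replicates 2 and 3 it is below on all 3. The gap in the quantile-normalized values of replicate 2 is only −0.02.

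Of 36 further nuclear genes listed for the plastid ribosome, 1 was read on a single-gene probe, and it did not pass in either direction. This was AT3G54210, which encodes L17 of the large subunit. Its deposited intensities in replicates 1 to 4 were 0.831, 0.742, 0.900 and 0.883 at 200 µE, against 0.431, 0.377, 0.559 and 0.652 at 20 µE, and these groups did not overlap. After normalization they did, with means of 0.662 ± 0.0379 at 200 µE and 0.685 ± 0.0579 at 20 µE (SD, n = 4 each). The log2 difference was −0.05 ± 0.07 (SE; limma, adjusted p = 0.868), with a 95% interval of −0.22 to 0.13. That interval was narrower than those of the 4 genes above. In the deposited values L17 passed at 0.76 (limma, adjusted p = 0.0397), a difference 0.05 under that of the median probe. None of 14 listed plastid translation factors and ribosome assembly factors had a single-gene probe.

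The other 535 matched single-gene probes above 0 on all arrays were ranked by how closely their normalized log2 profile over the 8 arrays followed each gene. The measure was the root mean square difference after each profile was centred on its mean. The nearest of many candidates lies under their median by construction. By the same measure the distance from a flat profile was 0.42 (L5), 0.19 (L29), 0.37 (L34) and 0.65 (S10). For L5 the nearest were CSLA01, AT3G12000 and AT5G17280, with CSLA01 at 0.20, against a median of 0.63 over all candidates. For L29 they were AT2G37420 at 0.11, AT1G21660 and AT5G27860, against a median of 0.48. For L34 they were AT3G02030 at 0.20, AT2G05120 and AT4G32340, against a median of 0.58. For S10 they were AT3G13180 at 0.24, AT1G67930 and AT5G41960, against a median of 0.77. None of the nearest genes was another of the ribosomal protein genes. With 3 nearest genes kept of 535 candidates, that is usual for any small group of genes and was not read as a result. The distances of the 4 genes from each other ran from 0.47 (L34 and L29) to 0.95 (L5 and S10).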

How the data were processed

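Per the labels, total RNA was measured on single-channel arrays, 4 at 200 µE and 4 at 20 µE. The deposited table holds intensities of 3439 probes on 8 arrays, and the sources used here do not state how the authors made them. Precision is limited by the number of arrays. Each 0 was replaced by its array's lowest positive value before quantile normalization and log2, and all probes were fitted with limma 3.58.1 in R 4.3.3 (lmFit, eBayes, no covariate, two-sided, Benjamini-Hochberg, threshold 0.05). Percentiles are ranks within the deposited values of an array. The fit was tried on simulated data with noise drawn independently for each array. That trial does not cover the correlation between arrays given next. Same-numbered arrays of the light levels deviated together from their group means (correlations of 0.71 to 0.74 in the 4 pairs, over 2600 probes), against 0.44 to 0.46 for other numbers of the same set and −0.62 to −0.56 across sets. Deviations from a group mean sum to 0, so positive correlations within sets bring negative ones across sets. Same-numbered arrays were therefore also compared as pairs, a reading of the data that the labels do not state. The main fit did not pair the arrays, so its SEs, intervals and p-values are unpaired. With the replicate number as a block the SE was 0.26 (L34), 0.25 (L5), 0.15 (L29) and 0.07 (L17). The intervals were then −0.96 to 0.54 (L34), −0.29 to 1.15 (L5), −0.57 to 0.30 (L29) and −0.26 to 0.17 (L17). None of these genes passed with the block (limma, lowest adjusted p = 0.308, for L5). Of 692 single-gene probes, 691 matched the reference gene table (assembly TAIR10.1, used for names only), which names no build of the array, so no coordinates are given. The genes, the lists, the sets and the tests were chosen with earlier results of these data known. The text names the 5 genes, the measured genes of the lists, and for each gene the 3 single-gene probes of nearest profile. No sequences are given. Alternatives in normalization, floor, filter, blocks and arrays left out are in the closing section.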

Additional observations from a re-analysis of the deposited data

Results flagged for a closer look

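For L29 (AT5G65220) at 200 µE, 1 array lay far from the other 3. Its normalized log2 values were 0.61, 0.60, 0.05 and 0.52 in replicates 1 to 4, and the gap below the others made up 0.841 of the group's range, past Dixon's limit for 4 values. Of 14 groups of 4 arrays examined, this was 1, where chance gives about 1 in 20. Without this array the difference of L29 was 0.00 (limma, adjusted p = 1).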

How the results depend on the processing

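None of the 4 genes above 0 passed under any of the 20 settings run, with lowest adjusted p values of 0.0687 (L34), 0.0705 (L5), 0.13 (L29) and 0.13 (S10), each in the deposited values (limma). L5 kept its positive sign in all 20. The floors, filters and blocks on the quantile-normalized values left the log2 difference of each gene unchanged, so they are no check on its sign. Within replicates 3 and 4 the difference of L5 was only 0.002. In the deposited values the log2 differences were 0.88 (L34), 1.24 (L5), 0.35 (L29) and 1.02 (S10), so those of L34, L29 and S10 turned sign. There the median over all 3439 probes was 0.99, which includes probes at 0 on all arrays whose difference comes from the floor alone. With median centring they were 0.038 (L34, turned), 0.40 (L5), −0.49 (L29) and 0.17 (S10, turned), and with cyclic loess −0.09, 0.45, −0.09 and −0.01. Within replicates 3 and 4, L34 turned to 0.14. Leaving out single arrays gave −0.39 to −0.03 (L34), 0.19 to 0.65 (L5), −0.19 to 0.00 (L29) and −0.52 to 0.18 (S10, turned to 0.18 without the 200 µE array of replicate 4). Leaving out both arrays of a number, chosen after seeing the data, gave −0.43 to 0.02 (L34), 0.23 to 0.63 (L5), −0.21 to 0.02 (L29) and −0.41 to −0.10 (S10). The gap between large and small subunit was −0.17 to 0.61 without single arrays, 0.43 and 0.07 within the sets, 0.10 with cyclic loess and −0.19 with median centring, against 0.25. The interaction of light with set passed on 199 probes, 29 with cyclic loess, 0 with median centring (447 at an unadjusted p under 0.05) and 0 in the deposited values, by limma. Of all probes, 235 passed (79 higher, 156 lower), 619 with the replicate block, which changed no call of the 4 genes, 746 with the set block, 927 in the deposited values (883 higher, 44 lower), 211 with median centring (43 higher, 168 lower), 97 with a floor per array after normalization, 156 without probes at 0 on any array, 146 without the lowest 25%, 611 within replicates 3 and 4, and 140 to 173 without single arrays (140 without the 20 µE array of replicate 3 or of replicate 4, and 145, 147 and 154 without the 200 µE arrays of replicates 2, 3 and 4). The causes were not tested.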
